A study of Rattus norvegicus with 16 samples.

Results

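Solute carriers were followed after efferent duct ligation (EDL) in the rat epididymis, in its initial segment, leaving out the amino acid and acid-base families Slc1, 3, 4, 6, 7, 9, 36, 38 and 43. A gene was taken when its annotated symbol began with Slc or Slco, the probe set that averaged highest across the 16 arrays stood for the gene, and a gene was kept when this probe set had a log2 level of 5 or more on at least 4 arrays. The array carried 240 such genes in 43 families, and 126 genes in 36 families were kept, out of 8345 genes on the array that reached the same level. Of the other 114 genes, 105 lay below 5 on every array and 9 reached 5 on 1 to 3 arrays. Of the 126, 105 lay at or above 5 on all 16 arrays, and 122 reached 5 in each of the 4 groups.

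The 16 arrays held tissue of adult male Sprague-Dawley rats in 4 groups of 4: sham operation, and 6, 12 and 18 h of EDL. EDL ties off the ducts that bring testicular fluid to the epididymis, and the study asked how the loss of factors in that fluid changes gene expression in the segment nearest the testis. Each rat had 1 side ligated and the opposite side sham-operated, so all groups came from operated animals and the sham tissue shared its circulation with a ligated side. The dissected piece covered zones 1a and 1b of the initial segment. A single sham group served for all 3 times, so time after surgery and time of ligation cannot be told apart. The replicates are called biological, but a shared number is not said to mark a shared animal, and the p-values below measure the spread between these arrays.

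Solute carriers are membrane proteins that move ions, nutrients, metabolites and vitamins without using ATP directly, by exchange, by facilitated diffusion or by coupling to sodium or protons. Some sit in the plasma membrane, others in mitochondria, lysosomes, the endoplasmic reticulum or the Golgi. The epididymal epithelium uses such transport to remove water and ions from the fluid around sperm and to add organic solutes such as carnitine and inositol, and the initial segment is the region that depends most on fluid from the testis.

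All levels below are log2 values of 1 probe set, so they are compared between groups and not between genes. A change is the ligated mean minus the sham mean, or the later minus the earlier time, and a change was called when limma gave an adjusted p under 0.05 over all 13410 tested probe sets. Values under 5 were not told from background. Where a group mean lay under 5, the change is a lower bound, and its fold ("at least") was taken with arrays under 5 set to 5.

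The libraries divided along their replicate numbers as well as by group. Over all tested probe sets, 4954 (36.9%) were called between replicates 3 and 4 and replicates 1 and 2, and so were 40 of the 126 solute carriers (31.7%), 21 of them higher and 19 lower in replicates 3 and 4. The 6 fibroblast markers averaged 9.45 in replicates 3 and 4, against 11.29 in replicates 1 and 2. A bacterial control transcript lay at 7.105 to 7.934 on replicates 3 and 4 of sham and 6 h, and at 2.216 on all other arrays. Together with the pairs of replicates, this level was used to define 3 array sets. They were replicates 1 and 2 of all groups, replicates 3 and 4 of sham and 6 h, and replicates 3 and 4 of 12 h and 18 h. Within replicates 3 and 4, array set and 12 or 18 h of ligation cannot be told apart, so within-pair changes are given for the genes whose levels are listed. The 5 matched initial segment markers had a mean of 12.47 to 13.03 in sham tissue, and 6 of 6 epithelial markers were tested. All 7 sperm and spermatid markers were on the array and 3 reached the minimum (Prm1, Smcp and Odf1). They fell at 12 h and 18 h, and the list mean was 2.68 to 2.92 at 18 h and 4.25 to 5.96 in sham tissue. Of 7 macrophage markers, Cd14 was called higher at 18 h, and the list mean was 5.56 to 6.64 at 18 h and 5.10 to 5.78 in sham tissue. The part of these cells in the changes below was not tested, and in whole tissue fewer cells of a type and less RNA per cell cannot be told apart.

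At 12 h of EDL, 19 of the 126 solute carriers were called against sham, 9 higher and 10 lower. That is 15.1%, and the same test called 7.86% of all tested probe sets (3.77% higher and 4.09% lower). At 18 h, 20 were called, 10 higher and 10 lower, or 15.9%, beside 10.2% of all tested probe sets (5.2% higher and 4.96% lower). At 6 h, 1 was called, lower, or 0.794%, beside 0.283% of all tested probe sets (0.112% higher and 0.172% lower). An unadjusted limma p under 0.05 was found at 6 h for 12 of the 126 and for 764 of all 13410 tested probe sets. The median change of the 126 was 0.03 at 6 h, -0.02 at 12 h and -0.004 at 18 h, beside 0.02, 0.02 and 0.01 over all tested probe sets. The riboflavin, magnesium and dicarboxylate carriers Slc52a3, Slc41a3 and Slc13a2 fell most in their classes, while the monocarboxylate, zinc and multivitamin carriers Slc16a1, Slc39a14 and Slc5a6 rose.

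In all, 26 members were called at some time against sham, 12 higher and 14 lower, and 100 were not. The share of all tested probe sets called at some time was not counted, so this count has no background beside it. The 3 comparisons share the sham arrays, and a call at 1 time and not at another does not show that the times differ. Every call against sham had the same sign in replicates 1 and 2 as in replicates 3 and 4. The calls were made on these same arrays together, so that agreement is largely built in and is no separate test. The change was the larger in replicates 1 and 2 for 13 of the 19 calls at 12 h and for 12 of the 20 at 18 h. Tested within a pair, with 2 arrays a group, 7 of the 19 calls at 12 h were called in neither pair (Slc12a8, Slc16a10, Slc25a1, Slc25a22, Slc2a8, Slc39a14 and Slc5a6) and 2 in both (Slc13a2 and Slc45a3). Of the 20 at 18 h, 7 were called in neither (Slc17a5, Slc25a1, Slc25a22, Slc33a1, Slc35a5, Slc5a6 and Slco1a4) and 6 in both (Slc13a2, Slc16a1, Slc28a3, Slc41a3, Slc45a3 and Slc52a3), and the 6 h call was called in neither.

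**Figure D1:**
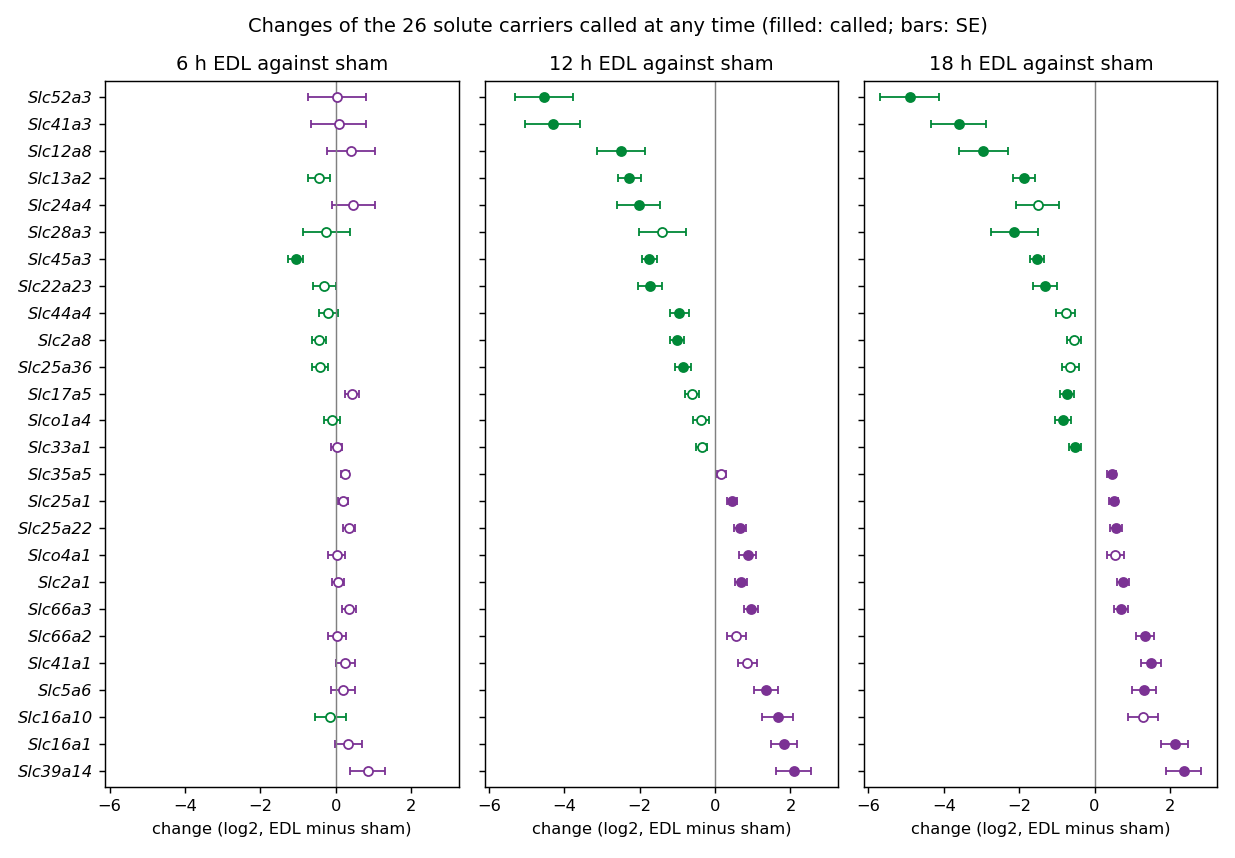
Change (log2, EDL minus sham; bars are the SE) of the 26 solute carriers called at any time, with 6, 12 and 18 h in separate panels, filled points for called changes, green for lower and purple for higher. At 6 h only Slc45a3 is filled, while 19 points are filled at 12 h and 20 at 18 h, from -4.91 for Slc52a3 to 2.36 for Slc39a14.

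Among 13 carriers of vitamins, nucleosides, choline and heme, 2 fell at 12 h and 2 at 18 h, and none rose. Slc52a3 carries riboflavin (vitamin B2) across the plasma membrane. Its level was 6.75, 9.41, 9.25 and 9.27 in sham tissue, 8.28, 8.64, 9.20 and 8.72 at 6 h, 2.47, 3.25, 6.71 and 4.10 at 12 h, and 4.03, 3.81, 4.41 and 2.78 at 18 h. Sham and 6 h arrays all lay above the 12 h and 18 h arrays, but by only 0.04 between the lowest sham array and the highest 12 h array, since sham replicate 1 lay at 6.75 and the other sham arrays between 9.25 and 9.41. The change was -4.54 ± 0.77 (SE, adjusted p = 0.00221) at 12 h, at least 9.45-fold lower, and -4.91 ± 0.77 (SE, adjusted p = 0.000911) at 18 h, at least 12.7-fold lower. At 12 h it was -5.22 within replicates 1 and 2 and -3.85 within 3 and 4, and at 18 h -4.16 within replicates 1 and 2 and -5.66 within 3 and 4. Averaging its 2 probe sets gave a change of -2.36 at 12 h and -2.55 at 18 h, still called. Its relative Slc52a2, also a riboflavin carrier, had a difference of 0.19 at 12 h and 0.05 at 18 h and was not called.

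Slc28a3 takes up nucleosides with sodium. Its level was 6.88, 6.94, 6.43 and 6.65 in sham tissue, 7.32, 7.23, 5.50 and 5.85 at 6 h, 6.19, 6.17, 4.18 and 4.75 at 12 h, and 5.69, 5.73, 3.45 and 3.51 at 18 h. The 18 h and sham arrays did not overlap, and the change of -2.13 ± 0.62 (SE, adjusted p = 0.0425) was a bound of at least 2.58-fold lower. It was called within each pair of replicates (adjusted p = 0.00385 and 0.0034). The change was -1.20 within replicates 1 and 2 and -3.06 within 3 and 4 at 18 h, and the gene lay 1.48 lower in replicates 3 and 4 than in replicates 1 and 2 over all groups. Leaving out any sham array, or 18 h replicate 3 or 4, ended the call (adjusted p up to 0.13, without 18 h replicate 3). With the pair of replicates as a block the adjusted p at 18 h was 0.000218, with the replicate number 0.000627 and with the array set 0.0022. The 12 h difference of -1.40 was not called, but it was within each pair (adjusted p = 0.0228 and 0.012) and with the pair or the replicate number as a block (adjusted p = 0.00571 and 0.00985). Slc44a4, a choline-like carrier, fell by 0.95 ± 0.25 (SE, adjusted p = 0.0338) at 12 h and this call ended without any sham array, without 12 h replicate 1, 3 or 4 (adjusted p up to 0.102, without sham replicate 2) and with the array set as a block (adjusted p = 0.146). The choline carrier Slc44a1 lay at 9.27 ± 0.26 at 12 h and 8.97 ± 0.14 in sham tissue (SD, n = 4 each) and was not called. The uncalled members of this class, Slc44a1 and Slc28a3 included, had differences of -1.40 to 0.29 at 12 h.

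Of 20 metal ion carriers, 1 rose and 1 fell at 12 h, and 2 rose and 1 fell at 18 h. Slc41a3 is a magnesium transporter. Its level was 11.22, 11.96, 11.78 and 12.15 in sham tissue, 11.87, 11.86, 12.05 and 11.63 at 6 h, 5.51, 6.04, 9.90 and 8.42 at 12 h, and 8.21, 7.92, 9.23 and 7.31 at 18 h. All 12 h and 18 h arrays lay below all sham and 6 h arrays, and the 12 h arrays spread most, with replicates 1 and 2 lowest. The change was -4.31 ± 0.73 (SE, adjusted p = 0.00212) at 12 h and -3.61 ± 0.73 (SE, adjusted p = 0.00566) at 18 h, a 19.8-fold and a 12.2-fold lower level. At 12 h it was -5.82 within replicates 1 and 2 and -2.80 within 3 and 4, and at 18 h -3.52 within replicates 1 and 2 and -3.70 within 3 and 4. Without replicates 1 and 2 the 12 h change was not called, and no left-out array ended the call.

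Its relative Slc41a1, also a magnesium transporter, went the other way at 18 h. Its level was 4.01, 4.91, 4.42 and 4.58 in sham tissue, 4.53, 4.91, 4.94 and 4.58 at 6 h, 4.82, 4.99, 5.77 and 5.78 at 12 h, and 6.05, 6.21, 6.31 and 5.38 at 18 h. The 18 h arrays all lay above the sham arrays, which were all under 5, and the rise of 1.51 ± 0.26 (SE, adjusted p = 0.00189) was a bound of at least 1.98-fold. Slc41a1 and Slc16a1 reached 5 on no sham array, so they passed the minimum level through ligated arrays alone, and they could be tested because they were high there. In the other direction, Slc2a8 reached 5 on no 12 h array and Slc52a3 on no 18 h array. The 12 h change of Slc41a1 was 0.86 with an adjusted p of 0.0634 in limma. It was called with the replicate number or the pair of replicates as a block (adjusted p = 0.039 and 0.0449), not with the array set. At 18 h the change was 1.67 within replicates 1 and 2 and 1.34 within 3 and 4. Slc41a2, the remaining member of the family, had a difference of 0.20 at 12 h and 0.36 at 18 h and was not called.

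Slc39a14 (ZIP14) imports zinc and iron that is not bound to transferrin. Its level was 3.39, 5.52, 4.80 and 4.80 in sham tissue, 5.39, 5.68, 5.59 and 5.24 at 6 h, 6.94, 7.31, 6.46 and 6.13 at 12 h, and 7.36, 7.75, 7.33 and 5.52 at 18 h. All 12 h and 18 h arrays lay above all sham arrays, though 18 h replicate 4 and sham replicate 2 both rounded to 5.52. The rise was 2.08 ± 0.47 (SE, adjusted p = 0.0146) at 12 h, at least 2.99-fold, and 2.36 ± 0.47 (SE, adjusted p = 0.00524) at 18 h, at least 3.63-fold. It was 2.67 within replicates 1 and 2 and 1.49 within 3 and 4 at 12 h, called in neither pair, and 3.10 within replicates 1 and 2 and 1.63 within 3 and 4 at 18 h. Among the 8 kept members of the zinc importer family Slc39, it was the 1 called at 12 h. The zinc importer Slc39a1 had a difference of 0.84 at 18 h without a call (adjusted p = 0.153). It was called with the replicate number, the pair of replicates or the array set as a block (adjusted p = 0.0233, 0.017 and 0.0495). The zinc importer Slc39a6 had a difference of -1.13 at 12 h (adjusted p = 0.0579). That difference was called with the replicate number or the pair of replicates as a block (adjusted p = 0.0316 and 0.043), not with the array set. None of the 6 kept zinc exporters of family Slc30 was called at 12 h, where their changes ran from -0.45 to 0.18.

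**Figure D2:**
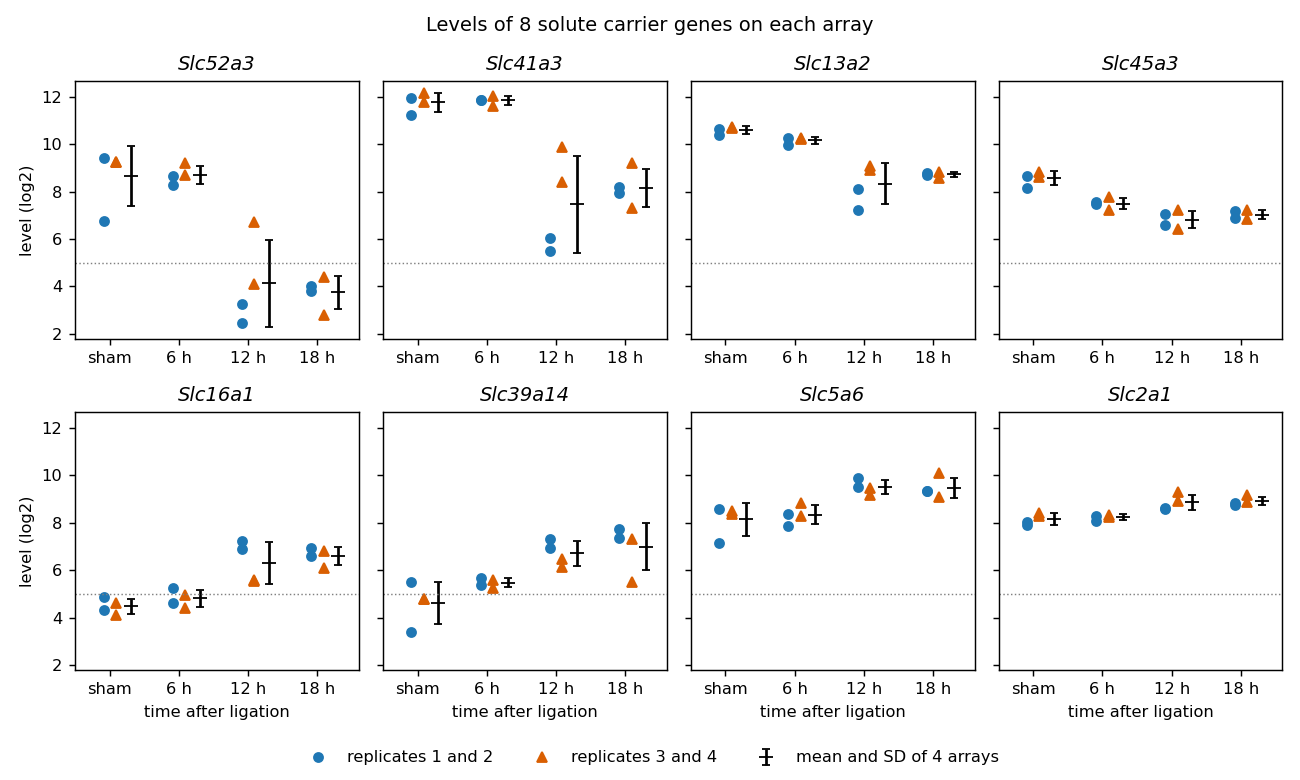
Level (log2) of 8 solute carriers on each of the 16 arrays, by group from sham to 18 h, with circles for replicates 1 and 2, triangles for replicates 3 and 4, a black bar for the mean and SD of 4 arrays, and a dotted line at 5. The 6 h arrays of Slc52a3 and Slc41a3 lie within the sham range and their 12 h and 18 h arrays below it, while Slc16a1, Slc5a6 and Slc2a1 lay above every sham array at 12 h and 18 h.

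Of 6 kept mono- and dicarboxylate carriers, 2 rose and 1 fell at 12 h, and 1 rose and 1 fell at 18 h. Slc13a2 takes up citrate, succinate and other dicarboxylates with sodium. Its level was 10.38, 10.64, 10.72 and 10.71 in sham tissue, 9.96, 10.25, 10.23 and 10.27 at 6 h, 7.24, 8.09, 8.93 and 9.10 at 12 h, and 8.71, 8.79, 8.85 and 8.59 at 18 h. No 12 h or 18 h array reached the lowest sham array, and the 4 arrays of 18 h differed by little. The change was -2.27 ± 0.30 (SE, adjusted p = 0.000272) at 12 h and -1.88 ± 0.30 (SE, adjusted p = 0.000888) at 18 h, a 4.83-fold and a 3.68-fold lower level. At 12 h it was -2.85 within replicates 1 and 2 and -1.70 within 3 and 4, and at 18 h -1.77 within replicates 1 and 2 and -1.99 within 3 and 4.

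Slc16a1 (MCT1) moves lactate, pyruvate and ketone bodies with protons. Its level was 4.86, 4.31, 4.12 and 4.62 in sham tissue, 5.25, 4.60, 4.42 and 4.96 at 6 h, 6.88, 7.24, 5.58 and 5.53 at 12 h, and 6.61, 6.92, 6.82 and 6.07 at 18 h. Every sham array lay under 5, and every 12 h and 18 h array lay above 5 and above every sham array. The gene thus passed the minimum level through ligated arrays alone, and it could be tested because it was high there. The rise was 1.83 ± 0.36 (SE, adjusted p = 0.00542) at 12 h, at least 2.47-fold, and 2.13 ± 0.36 (SE, adjusted p = 0.00143) at 18 h, at least 3.05-fold. It was 2.47 within replicates 1 and 2 and 1.19 within 3 and 4 at 12 h and 2.18 within replicates 1 and 2 and 2.08 within 3 and 4 at 18 h. Bsg (basigin), the chaperone that brings Slc16a1 to the membrane, lay at 11.56 ± 0.22 at 18 h and 11.86 ± 0.26 in sham tissue (SD, n = 4 each) and was not called. Its relative Emb (embigin), which also serves monocarboxylate carriers, fell by 0.43 ± 0.11 (SE, adjusted p = 0.0198) at 18 h.

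Slc16a10, a carrier of aromatic amino acids and thyroid hormone in the same family, lay at 8.56, 6.52, 7.78 and 7.85 in sham tissue, 7.54, 6.75, 7.52 and 8.34 at 6 h, 9.85, 9.19, 9.04 and 9.27 at 12 h, and 8.50, 8.84, 8.82 and 9.69 at 18 h. The 12 h arrays all lay above the sham arrays, while 18 h replicate 1 lay within them. The rise at 12 h was 1.66 ± 0.41 (SE, adjusted p = 0.0221), lost without sham replicate 2 or 12 h replicate 1 (adjusted p up to 0.0724), and the change at 18 h was 1.28 with an adjusted p of 0.0603. This 18 h change was called with the replicate number or the pair of replicates as a block (adjusted p = 0.0221 and 0.0419), not with the array set. The 12 h rise was 1.98 within replicates 1 and 2 and 1.34 within 3 and 4, called in neither pair. The other members of this class, Slc16a12, Slc16a6 and Slc16a13, had a difference of -0.53 to 0.16 at 12 h and were not called.

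Among 9 carriers of sugars, polyols and sodium-coupled substrates, 2 rose and 2 fell at 12 h, and 2 rose and 1 fell at 18 h. Slc45a3, of a family of proposed sugar transporters, was called at each of the 3 times. Its level was 8.15, 8.67, 8.61 and 8.83 in sham tissue, 7.47, 7.55, 7.21 and 7.78 at 6 h, 6.59, 7.04, 6.43 and 7.21 at 12 h, and 7.20, 6.89, 7.21 and 6.83 at 18 h. The highest ligated array at each time lay below the lowest sham array. The change was -1.06 ± 0.19 (SE, adjusted p = 0.0322) at 6 h, -1.75 ± 0.19 (SE, adjusted p = 6.95e-05) at 12 h and -1.53 ± 0.19 (SE, adjusted p = 0.000149) at 18 h, that is 2.09-fold, 3.36-fold and 2.89-fold lower. The change was -0.90 within replicates 1 and 2 and -1.22 within 3 and 4 at 6 h, -1.59 within replicates 1 and 2 and -1.90 within 3 and 4 at 12 h and -1.36 within replicates 1 and 2 and -1.70 within 3 and 4 at 18 h. The 12 h and 18 h calls held in every alternative, while the 6 h call ended without sham replicate 2, 3 or 4 or 6 h replicate 1, 2 or 3 (adjusted p up to 0.156, without sham replicate 4).

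Slc2a1 (GLUT1), the glucose carrier of most cells, lay at 7.92, 8.02, 8.43 and 8.29 in sham tissue, 8.30, 8.07, 8.23 and 8.34 at 6 h, 8.62, 8.59, 9.32 and 8.91 at 12 h, and 8.85, 8.77, 9.17 and 8.87 at 18 h. Its 12 h and 18 h arrays all lay above the sham arrays. It rose by 0.70 ± 0.16 (SE, adjusted p = 0.0168) at 12 h, lost without sham replicate 2 (adjusted p = 0.0519), and by 0.75 ± 0.16 (SE, adjusted p = 0.00859) at 18 h, a 1.62-fold and a 1.68-fold higher level. The rise was 0.64 within replicates 1 and 2 and 0.75 within 3 and 4 at 12 h, and 0.84 within replicates 1 and 2 and 0.66 within 3 and 4 at 18 h. Slc2a8 (GLUT8), an intracellular glucose carrier, fell by 1.02 ± 0.19 (SE, adjusted p = 0.00363) at 12 h, at least 1.39-fold lower. Its sham arrays lay between 5.35 and 5.57, close to the limit of 5. The insulin-responsive glucose carrier Slc2a4, chosen here after its values were seen, was not called at 12 h over all arrays. It was called within replicates 1 and 2 (1.25, adjusted p = 0.012) and with the array set as a block (0.83, adjusted p = 0.0455), and its difference within replicates 3 and 4 was -0.05.

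Slc5a6 takes up biotin, pantothenate and lipoate with sodium. Its level was 8.61, 7.13, 8.50 and 8.36 in sham tissue, 8.36, 7.88, 8.28 and 8.84 at 6 h, 9.88, 9.51, 9.17 and 9.45 at 12 h, and 9.36, 9.33, 9.09 and 10.09 at 18 h. All 12 h and 18 h arrays lay above the sham arrays, of which replicate 2 was lowest. The rise was 1.35 ± 0.31 (SE, adjusted p = 0.016) at 12 h and 1.32 ± 0.31 (SE, adjusted p = 0.0151) at 18 h, 2.55-fold and 2.49-fold. Without 12 h replicate 1 the adjusted p at 12 h was 0.0555. The rise was 1.83 within replicates 1 and 2 and 0.88 within 3 and 4 at 12 h and 1.48 within replicates 1 and 2 and 1.16 within 3 and 4 at 18 h, and neither time was called in either pair. The inositol carrier Slc5a3 lay at 9.71 ± 0.34 at 12 h and 9.28 ± 0.66 in sham tissue, and the sugar carrier Slc50a1 at 10.72 ± 0.36 and 11.01 ± 0.30 in the same groups (SD, n = 4 each). Neither was called.

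**Figure D3:**
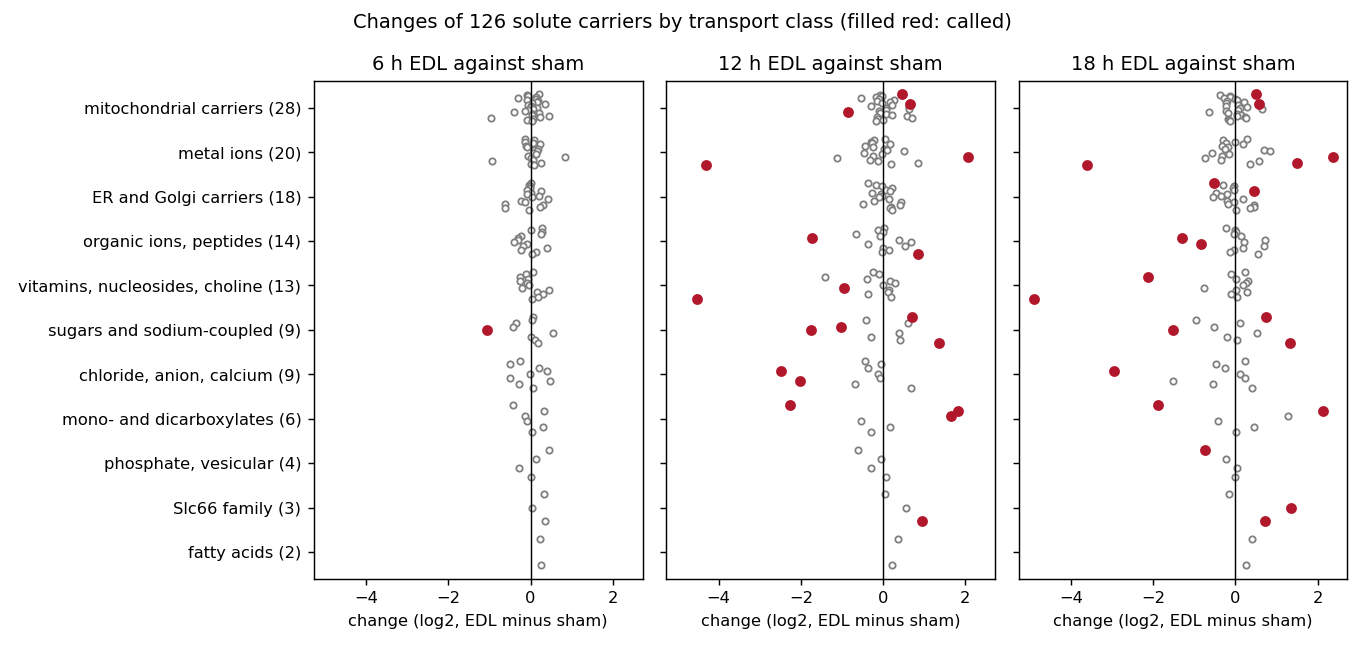
Change (log2, EDL minus sham) of each of the 126 solute carriers at 6, 12 and 18 h, by transport class down the page with the number of kept members in brackets, with filled red points for called changes. Most open points lie within 0.5 of 0, with 118 of 125 uncalled members there at 6 h, 89 of 107 at 12 h and 88 of 106 at 18 h.

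Of 9 kept carriers in the chloride, anion and calcium class, 2 fell at 12 h and 1 at 18 h, and none rose. They were of families Slc12, Slc24 and Slc8, and no anion exchanger of family Slc26 was kept. Slc12a8 belongs by sequence to the cation-chloride cotransporters. Its level was 5.29, 7.70, 7.20 and 9.12 in sham tissue, 7.78, 7.46, 7.76 and 7.94 at 6 h, 3.94, 3.95, 5.40 and 6.05 at 12 h, and 4.38, 3.94, 5.09 and 4.08 at 18 h. Sham replicate 1 lay below 2 of the 12 h arrays, so those groups overlapped, while all 18 h arrays lay below all sham arrays. The change was -2.49 ± 0.65 (SE, adjusted p = 0.0289) at 12 h, at least 3.91-fold lower, and -2.95 ± 0.65 (SE, adjusted p = 0.00904) at 18 h, at least 4.95-fold lower. The 12 h call ended without sham replicate 2, 3 or 4 or 12 h replicate 1 or 2 (adjusted p up to 0.0934, without 12 h replicate 1), and the 18 h call held without each single array. The change was -2.55 within replicates 1 and 2 and -2.44 within 3 and 4 at 12 h and -2.34 within replicates 1 and 2 and -3.57 within 3 and 4 at 18 h.

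Slc24a4 exchanges calcium and potassium for sodium. Its level was 8.62, 9.11, 9.34 and 9.35 in sham tissue, 9.18, 9.61, 10.04 and 9.45 at 6 h, 6.18, 5.25, 8.34 and 8.51 at 12 h, and 7.83, 7.62, 7.91 and 6.99 at 18 h. The 12 h and sham arrays did not overlap, and replicates 1 and 2 of 12 h lay lowest. The change at 12 h was -2.03 ± 0.57 (SE, adjusted p = 0.041), and it was -3.15 within replicates 1 and 2 and -0.92 within 3 and 4. The call ended without sham replicate 2, 3 or 4 or 12 h replicate 1 or 2 (adjusted p up to 0.13, without 12 h replicate 1), and the 18 h change of -1.51 had an adjusted p of 0.117. Of the 2 other probe sets of Slc24a4, 1 was called at 12 h (-1.75, adjusted p = 0.0306) and at 18 h (-1.56, adjusted p = 0.0436). The other was called at neither time (-1.97, adjusted p = 0.129, and -1.75, adjusted p = 0.163). On both, the 18 h arrays all lay below the sham arrays. The thiazide-sensitive sodium chloride carrier Slc12a3 lay at 8.18 ± 0.77 at 12 h and 8.22 ± 0.58 in sham tissue, and the mitochondrial calcium exchanger Slc8b1 had a difference of 0.69 at 12 h (adjusted p = 0.0501). Neither was called, though Slc8b1 was with the pair of replicates as a block (adjusted p = 0.038).

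Among 14 carriers of organic ions, bile acids and peptides, 1 rose and 1 fell at 12 h, and 2 fell at 18 h. Slc22a23, an organic ion carrier without a settled substrate, lay at 6.57, 6.39, 6.78 and 6.94 in sham tissue, 6.53, 6.30, 6.46 and 6.20 at 6 h, 4.37, 4.94, 6.05 and 4.45 at 12 h, and 5.06, 5.07, 6.05 and 5.27 at 18 h. No 12 h or 18 h array reached the lowest sham array, and replicate 3 was the highest of both times. The change was -1.72 ± 0.31 (SE, adjusted p = 0.00354) at 12 h, at least 2.65-fold lower, and -1.31 ± 0.31 (SE, adjusted p = 0.0158) at 18 h, 2.48-fold lower. The 18 h call was lost without sham replicate 4 or 18 h replicate 1 (adjusted p up to 0.0526). Within pairs the change was -1.83 within replicates 1 and 2 and -1.61 within 3 and 4 at 12 h and -1.42 within replicates 1 and 2 and -1.20 within 3 and 4 at 18 h.

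Slco4a1, which carries thyroid hormone and other organic anions, rose by 0.86 ± 0.22 (SE, adjusted p = 0.0283) at 12 h, with 12 h arrays between 9.73 and 10.09 and sham arrays between 8.72 and 9.24. A second probe set rose by 0.90 (adjusted p = 0.0321). The first call ended without sham replicate 2, 3 or 4 or 12 h replicate 1, 2 or 4 (adjusted p up to 0.0906, without sham replicate 2) and with the array set as a block (adjusted p = 0.0796). Slco1a4, another organic anion carrier, fell by 0.85 ± 0.21 (SE, adjusted p = 0.0191) at 18 h. This call was lost without sham replicate 3 or 4 or 18 h replicate 1 (adjusted p up to 0.0681) and with the set as a block (adjusted p = 0.0909). It was also lost when the probe sets of the gene were averaged. Its paralog Slco1a5 had a difference of 0.68 at 18 h with an adjusted p of 0.0679, and was called with the replicate number as a block (adjusted p = 0.0389). The carnitine carrier Slc22a5, chosen after its values were seen because carnitine is a known solute of epididymal fluid, lay at 5.99 ± 0.39 at 12 h and 5.30 ± 0.30 in sham tissue (SD, n = 4 each) and was not called (adjusted p = 0.2).

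The 28 kept mitochondrial carriers of family Slc25 formed the largest class. Against sham, 2 rose and 1 fell at 12 h, and 2 rose at 18 h. Slc25a22, a glutamate carrier, rose by 0.65 ± 0.16 (SE, adjusted p = 0.019) at 12 h and 0.57 ± 0.16 (SE, adjusted p = 0.0316) at 18 h. Slc25a1, which exports citrate from mitochondria, rose by 0.45 ± 0.13 (SE, adjusted p = 0.0472) at 12 h and 0.50 ± 0.13 (SE, adjusted p = 0.0234) at 18 h, a 1.37-fold and a 1.42-fold higher level. Its 12 h arrays lay between 9.53 and 9.63 and its sham arrays between 8.97 and 9.32. Slc25a36, which moves pyrimidine nucleotides, fell by 0.85 ± 0.22 (SE, adjusted p = 0.0273) at 12 h, and a second probe set fell by 0.89 (adjusted p = 0.00828). At 18 h its difference of -0.64 was not called, but it was with the replicate number, the pair of replicates or the array set as a block (adjusted p = 0.025, 0.021 and 0.0494), and the second probe set fell by 0.63 (adjusted p = 0.0424).

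Several of these calls did not hold without each single array. At 12 h that of Slc25a1 ended without sham replicate 1, 3 or 4 or any 12 h array (adjusted p up to 0.139, without sham replicate 4) and with the array set as a block (adjusted p = 0.0713). Its 18 h call ended without sham replicate 3 or 4 or 18 h replicate 1, 2 or 3 (adjusted p up to 0.0753, without sham replicate 4). For Slc25a22 the 12 h call ended without sham replicate 4 or 12 h replicate 1 (adjusted p up to 0.0644). Its 18 h call ended without sham replicate 1 or 4 or 18 h replicate 1 or 2 (adjusted p up to 0.0925, without sham replicate 4) and with the set as a block (adjusted p = 0.0549). The Slc25a36 call ended without sham replicate 3 or 4 or 12 h replicate 1 or 4 (adjusted p up to 0.0885, without 12 h replicate 1). The ADP/ATP carrier Slc25a5 had a difference of 0.00 ± 0.12 at 12 h and the phosphate carrier Slc25a3 of 0.07 ± 0.11 (SE), and neither was called. The uncalled members of the class had a difference of -0.53 to 0.72 at 12 h.

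Of 18 kept carriers of the endoplasmic reticulum and Golgi, none was called at 12 h, where 1 had an unadjusted p under 0.05, and 1 rose and 1 fell at 18 h. Slc35a5, of the nucleotide sugar carrier family, rose by 0.46 ± 0.12 (SE, adjusted p = 0.0226) at 18 h. Slc33a1, which brings acetyl-CoA into the endoplasmic reticulum, fell by 0.53 ± 0.16 (SE, adjusted p = 0.047) at 18 h, a 1.44-fold lower level, and 1 of its 2 other probe sets was called too (-0.68, adjusted p = 0.0285) while 1 was not (-0.46, adjusted p = 0.0533). At 18 h a second probe set was called lower for the nucleotide sugar carriers Slc35a1 (-0.67, adjusted p = 0.00744) and Slc35b4 (-0.45, adjusted p = 0.0109), named after their values were seen, whose probe sets used here were not called. Those were called with the replicate number or the pair of replicates as a block (adjusted p = 0.0388 and 0.0244 for Slc35a1, 0.0355 and 0.0231 for Slc35b4). Over all uncalled members, 4 of 32 other probe sets were called at 18 h, of these genes and of Slc24a4 and Slc25a36, and 0 of 30 at 12 h. The call of Slc33a1 ended without sham replicate 1, 2 or 4 or any 18 h array (adjusted p up to 0.141, without 18 h replicate 3) and with the set as a block (adjusted p = 0.0713). That of Slc35a5 ended without sham replicate 2 or 4 or 18 h replicate 1 or 3 (adjusted p up to 0.0691, without 18 h replicate 3) and with the set as a block (adjusted p = 0.0652). The nucleotide carrier Slc35b1 lay at 10.44 ± 0.20 at 18 h and 10.91 ± 0.31 in sham tissue and was not called, though it was with the pair of replicates as a block (adjusted p = 0.0453).

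Of 3 members of the PQ-loop family Slc66, 1 rose at 12 h and 2 at 18 h. Slc66a2 lay at 8.33, 8.02, 8.12 and 7.87 in sham tissue, 7.96, 8.07, 7.88 and 8.57 at 6 h, 8.39, 8.78, 8.93 and 8.51 at 12 h, and 9.90, 9.65, 9.56 and 8.60 at 18 h. It rose by 1.34 ± 0.24 (SE, adjusted p = 0.00239) at 18 h, 2.53-fold, with all 18 h arrays above all sham arrays. The rise was 1.60 within replicates 1 and 2 and 1.09 within 3 and 4. Slc66a3 rose by 0.96 ± 0.19 (SE, adjusted p = 0.00567) at 12 h and 0.71 ± 0.19 (SE, adjusted p = 0.0277) at 18 h, and the 18 h call ended without sham replicate 1, 2 or 3 or 18 h replicate 1 or 3 (adjusted p up to 0.0873, without sham replicate 3) and with the set as a block (adjusted p = 0.1). Slc66a1, which exports cationic amino acids from lysosomes, was not called.

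Of 4 kept phosphate and vesicular carriers, 1 fell at 18 h. Slc17a5 (sialin) exports sialic acid from lysosomes. It lay between 8.24 and 8.77 at 18 h and between 8.73 and 9.57 in sham tissue, so the groups overlapped in 1 array of each, and the fall was 0.74 ± 0.19 (SE, adjusted p = 0.021). That call ended without sham replicate 2, 3 or 4 or 18 h replicate 2 or 3 (adjusted p up to 0.0739, without sham replicate 4) and with the set as a block (adjusted p = 0.0645). The phosphate carrier Slc20a1 had a difference of -0.28 at 12 h and 0.04 at 18 h and was not called. The 2 kept fatty acid carriers, Slc27a1 and Slc27a4, were not called at any time, with changes of 0.37 and 0.23 at 12 h.

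The start regions of some genes with large falls and of the raised Slc16a1 are shown because the series names ERK signalling, whose outputs include ETS transcription factors. RefSeq windows on the rat build GRCr8, from 250 bases before to 50 bases after the annotated start, were used for 104 of the 126 genes and 21 of the 26 called ones. They are given 5′ to 3′ on the strand of the gene, with the ETS motif AGGAAG and its reverse complement in capitals:
Slc41a3, chr4:124684717-124685016, plus strand: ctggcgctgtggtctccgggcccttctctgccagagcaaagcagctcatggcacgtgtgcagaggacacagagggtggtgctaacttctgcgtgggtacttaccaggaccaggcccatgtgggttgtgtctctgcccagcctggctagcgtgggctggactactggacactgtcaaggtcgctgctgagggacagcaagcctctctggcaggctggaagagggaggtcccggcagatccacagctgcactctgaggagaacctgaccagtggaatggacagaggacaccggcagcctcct
Slc12a8, chr11:80770866-80771165, minus strand: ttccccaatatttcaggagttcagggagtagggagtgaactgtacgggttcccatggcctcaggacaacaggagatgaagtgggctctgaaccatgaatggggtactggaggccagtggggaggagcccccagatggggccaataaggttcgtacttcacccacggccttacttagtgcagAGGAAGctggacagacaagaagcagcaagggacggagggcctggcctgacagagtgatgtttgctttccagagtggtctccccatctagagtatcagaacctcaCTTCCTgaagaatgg
Slc13a2, chr10:63817135-63817434, minus strand: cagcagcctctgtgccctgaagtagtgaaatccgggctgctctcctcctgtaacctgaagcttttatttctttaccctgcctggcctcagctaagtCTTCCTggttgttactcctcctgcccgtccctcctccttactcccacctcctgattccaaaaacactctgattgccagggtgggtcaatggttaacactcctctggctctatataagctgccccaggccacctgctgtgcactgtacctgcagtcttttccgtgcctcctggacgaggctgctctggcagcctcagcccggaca
Slc45a3, chr13:45959217-45959516, plus strand: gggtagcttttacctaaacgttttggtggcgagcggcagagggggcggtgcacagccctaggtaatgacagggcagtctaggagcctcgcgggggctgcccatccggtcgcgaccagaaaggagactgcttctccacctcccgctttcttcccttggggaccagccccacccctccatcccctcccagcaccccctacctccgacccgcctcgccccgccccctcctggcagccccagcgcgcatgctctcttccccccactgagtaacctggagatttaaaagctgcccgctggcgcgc
Slc16a1, chr2:194812410-194812709, plus strand: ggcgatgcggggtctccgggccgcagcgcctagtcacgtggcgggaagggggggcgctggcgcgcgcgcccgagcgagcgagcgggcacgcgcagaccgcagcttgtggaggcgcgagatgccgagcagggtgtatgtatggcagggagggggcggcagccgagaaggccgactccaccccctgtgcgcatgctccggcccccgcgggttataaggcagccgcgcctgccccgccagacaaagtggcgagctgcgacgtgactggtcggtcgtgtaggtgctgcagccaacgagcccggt
Slc12a8 carried the motif at 69 bases before and 35 bases after the start, on opposite strands, and Slc13a2 at 154 bases before it. Slc41a3, Slc45a3 and the raised Slc16a1 had no match in these windows. Nor had the window of Slc24a4, which fell more than Slc45a3 at 12 h and is not shown. Over both strands the motif was found in 7 of 11 windows of genes called lower (63.6%), in 3 of 10 windows of genes called higher, in 30 of 104 windows of kept members (28.8%) and in 34.3% of all 27457 windows of the table. The STAT motif TTCNNNGAA was found in 0 of 11 and 0 of 10, in 5 of 104, and in 8.68% of all windows, so the 2 motifs overlapped in no called gene. These counts describe letters in a window and were not tested. Windows were not used for Slc52a3, Slc28a3, Slc39a14, Slc41a1 and Slc25a36.

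Between 6 h and 12 h, 13 of the 126 were called, 5 higher and 8 lower at 12 h. That is 10.3%, beside 4.28% of all tested probe sets (1.82% higher and 2.46% lower). The falls were those of Slc52a3 (-4.58 ± 0.77 (SE, adjusted p = 0.00446)), Slc41a3 (-4.39 ± 0.73 (SE, adjusted p = 0.00415)), Slc12a8 (-2.90 ± 0.65 (SE, adjusted p = 0.0221)), Slc24a4 (-2.50 ± 0.57 (SE, adjusted p = 0.0234)) and Slc13a2 (-1.84 ± 0.30 (SE, adjusted p = 0.00343)), with smaller ones of Slc22a23, Slc17a5 and Slc49a4. Slc49a4, named after its values were seen, fell by 0.66 ± 0.16 (SE, adjusted p = 0.0333). Each of the 13 had the same direction in both pairs of replicates, which a call on these same arrays favours. Of the falls, that of Slc12a8 ended without 6 h replicate 1, 3 or 4 or 12 h replicate 1 or 2 (adjusted p up to 0.0756), that of Slc24a4 without 6 h replicate 2 or 3 or 12 h replicate 1 (up to 0.0803) and that of Slc22a23 without 6 h replicate 1, 2 or 3 or 12 h replicate 1, 2 or 4 (up to 0.074), each highest without 12 h replicate 1. The level of Slc52a3, Slc41a3, Slc12a8 and Slc24a4 at 6 h lay 0.04 to 0.47 above sham and was not called against it.

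The rises from 6 h were those of Slc16a10 (1.80 ± 0.41 (SE, adjusted p = 0.0233)), Slc25a45 (1.68 ± 0.23 (SE, adjusted p = 0.00114)), Slc16a1, Slco4a1 and Slc2a1. Slc25a45, a mitochondrial carrier, had levels of 7.67, 7.24, 7.39 and 7.20 in sham tissue, 6.36, 6.12, 6.94 and 6.22 at 6 h, 8.44, 8.29, 7.62 and 8.01 at 12 h, and 7.37, 7.52, 7.39 and 8.22 at 18 h. All 6 h arrays lay below all sham and 12 h arrays, and 12 h replicate 3 lay within the sham range while the other 12 h arrays lay above it. Neither its change at 6 h (-0.96, adjusted p = 0.173) nor that at 12 h (0.72, adjusted p = 0.0792) was called against sham, and its 12 h level against 6 h held without any single array. The 12 h change against 6 h was 2.12 within replicates 1 and 2 and 1.23 within 3 and 4. The calls of the other rises did not hold without each single array. The call of Slc16a10 ended without 6 h replicate 1, 2 or 3 or 12 h replicate 1 (adjusted p up to 0.0796, without 12 h replicate 1), and that of Slc16a1 without 6 h replicate 2, 3 or 4 or 12 h replicate 1 or 2 (adjusted p up to 0.101, without 12 h replicate 1). The call of Slc2a1 ended without any 6 h array or 12 h replicate 1, 3 or 4 (adjusted p up to 0.123, without 6 h replicate 2), and that of Slco4a1 without any 6 h or 12 h array (adjusted p up to 0.135, without 12 h replicate 1).

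Between 12 h and 18 h no solute carrier was called, as was none of the 13410 probe sets (0%), although 11 of the 126 and 877 of all had an unadjusted p under 0.05. The largest changes of the 126 were -0.73 for Slc28a3 and 0.77 for Slc66a2. Slc41a3 had a difference of 2.29 within replicates 1 and 2 and -0.89 within 3 and 4, so the pairs went opposite ways. Within replicates 1 and 2 alone, the Slc41a3 rise of 2.29 and a fall of 1.01 for Slc2a4 were called. Within each pair of replicates, 12 h and 18 h shared the same array set.

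**Figure D4:**
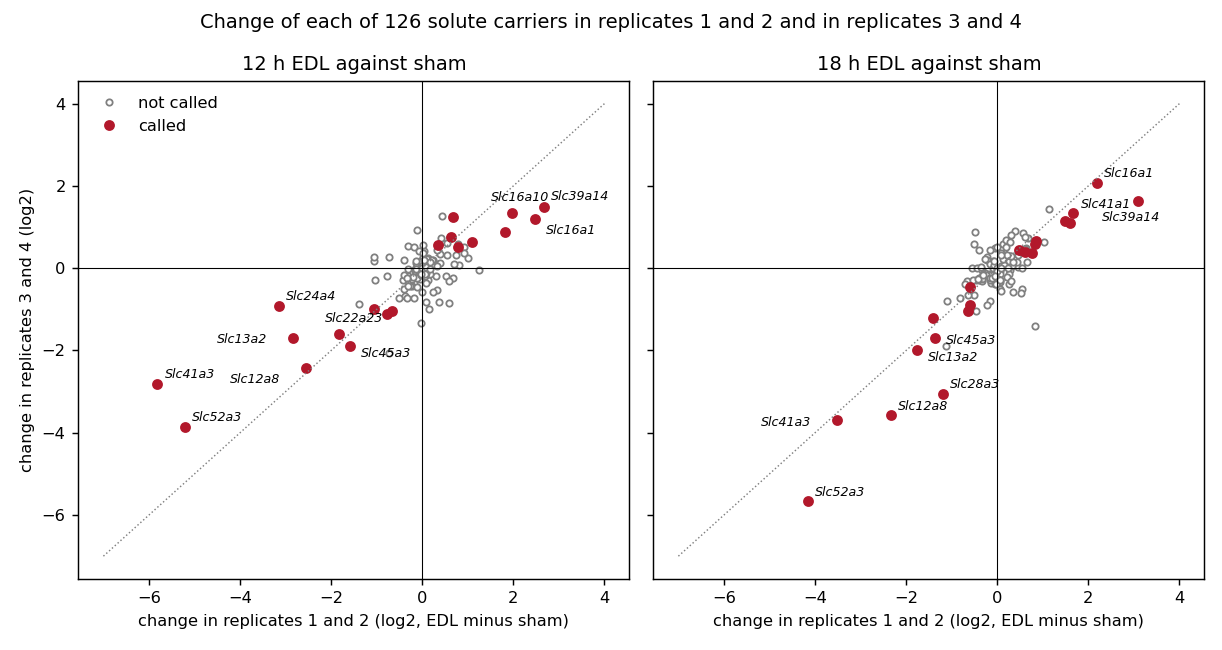
Change (log2, EDL minus sham) of each of the 126 solute carriers in replicates 3 and 4 (vertical axis) against that in replicates 1 and 2 (horizontal axis), at 12 h and 18 h, with filled red points for called members and a dotted line of equal change. All 19 called points at 12 h and all 20 at 18 h lie in the lower left or upper right of their panel, which calls on these same arrays favour. Slc41a3 at 12 h is farthest from the dotted line among the named points, at -5.82 and -2.80.

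Genes that work beside solute carriers or carry an SLC number under another name were read from a list of 40, of which 34 were on the array and 28 reached the minimum. At 6, 12 and 18 h, 1, 2 and 4 of the 28 were called lower and 0 higher. Over all tested probe sets, 0.172%, 4.09% and 4.96% were called lower at these times, and 0.112%, 3.77% and 5.2% higher. Whether the list differs from all probe sets was not tested. Mfsd2a, which carries lysophospholipids with sodium, lay at 5.80, 8.45, 8.70 and 8.86 in sham tissue, 3.34, 4.78, 5.73 and 4.89 at 6 h, 2.73, 2.77, 2.79 and 2.51 at 12 h, and 2.78, 2.78, 2.51 and 2.81 at 18 h. All ligated arrays lay below all sham arrays, and the 12 h and 18 h arrays lay near the bottom of the scale. The changes were -3.27 ± 0.58 (SE, adjusted p = 0.0278), -5.25 ± 0.58 (SE, adjusted p = 6.8e-05) and -5.23 ± 0.58 (SE, adjusted p = 5.04e-05) at the 3 times, at least 6.81-fold, 7.73-fold and 7.73-fold lower. Acsl1, which activates fatty acids, fell by 2.74 ± 0.40 (SE, adjusted p = 0.000664) at 12 h and 2.39 ± 0.40 (SE, adjusted p = 0.00149) at 18 h, and its relative Acsl4 by 0.47 ± 0.14 (SE, adjusted p = 0.044) at 18 h. The ammonia channel Rhcg was higher at 12 h than at 6 h by 2.00 ± 0.49 (SE, adjusted p = 0.0343), and the magnesium-linked subunit Tusc3 lower by 0.47 ± 0.12 (SE, adjusted p = 0.0496). The sodium pump subunits Atp1b1 and Atp1b3 and the pyruvate carriers Mpc1 and Mpc2 were not called against sham.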

How the data were processed

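Each of 16 tissue RNAs was read on its own Affymetrix rat array. The deposited values are log2 levels, 1 per probe set and array, made by the authors with GCRMA per the submitters' processing notes, with a version not given in the sources used here. GCRMA corrects background by probe sequence and quantile normalizes the arrays, so a shift of all genes would not be seen. Scanner files were not used here. Values ran from 2.216 to 15.086, correlations between arrays were 0.974 to 0.996, and 0 pairs of arrays were identical. The number of arrays limits the precision.

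Of 31099 probe sets, 57 controls were left out, and 13410 lay at or above 5 on at least 4 arrays and were tested. Gene names came from the platform annotation of 2016, which gave 1 symbol to 20826 probe sets, several to 436 and none to 9780. All 240 member symbols were found among RefSeq genes of GRCr8 and 0 changed, and 2 probe sets that name Slc25a51 more than once were left out. Of the kept genes, 48 had more than 1 probe set. The probe sets of Slc25a14 and Slc66a1 have suffixes that mark sequence shared with other transcripts, so their signal may not be of 1 gene, and those of Slc24a4 and Slc2a4 a suffix for several transcripts of 1 gene.

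Group means were fitted jointly over the 16 arrays with limma 3.58.1 under R 4.3.3, using lmFit and an unmodified eBayes prior, with Benjamini-Hochberg adjustment over the tested probe sets in each of 5 comparisons. The steps were tested on simulated data. Named genes are, by rule, the up to 12 largest called rises and falls at each time, up to 5 each way between neighbouring times, and in each class 2 genes with the smallest F-test p and 2 with the highest sham mean, with up to 4 called genes of the partner list at each time, and exceptions are marked. Members, classes, marker and partner lists were chosen with earlier results of these data known. Alternatives were a trended robust prior, no minimum or one of 7, centred or again quantile normalized arrays, the 2 groups alone, arrayWeights (statmod 1.5.0), averaged probe sets, stricter thresholds, blocks for replicate number, pair of replicates or array set, each pair of replicates alone, and each array left out.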

Additional observations from a re-analysis of the deposited data

Results flagged for a closer look

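Of 160 groups of 4 arrays (40 named genes in 4 groups), 9 (5.62%) held an array far enough from the nearest other array, against the group's range, to pass Dixon's critical value at 95%, where chance gives about 1 in 20 groups. In sham tissue, replicate 1 of Slc52a3 lay at 6.75 and the others at 9.25 to 9.41, and replicate 1 of Slc27a1 at 5.85 with the others at 7.21 to 7.37. Sham replicate 2 of Slc5a6 lay at 7.13 (others 8.36 to 8.61) and sham replicate 4 of Slc44a1 at 8.77 (others 9.02 to 9.06). At 6 h, replicate 1 of Slc13a2 lay at 9.96 (others 10.22 to 10.27). At 12 h, replicate 4 of Slc25a1 lay at 9.63 (others 9.53 to 9.54) and replicate 3 of Slco1a5 at 9.01 (others 9.58 to 9.63). At 18 h, replicate 3 of Slc27a4 lay at 7.47 (others 6.40 to 6.47) and replicate 1 of Slco1a4 at 5.21 (others 5.72 to 5.80).

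For 5 genes called at 12 h against sham, the 6 h change had the opposite sign and 12 h against 6 h was called. The estimates of 12 h against 6 h were -4.58 for Slc52a3, -4.39 for Slc41a3, -2.90 for Slc12a8, -2.50 for Slc24a4 and 1.80 for Slc16a10. Slc17a5, Slc25a45 and Slc49a4 also had opposite signs and a called direct test, but no call at 12 h against sham. Both comparisons with sham use the same sham arrays, and none of the 5 was called at 6 h.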

How the results depend on the processing

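The main counts were 1 at 6 h, 19 at 12 h, 20 at 18 h, 13 for 12 h against 6 h and 0 for 18 h against 12 h. With no minimum level, 0 members were called at 6 h, 10 at 12 h, 12 at 18 h and 5 for 12 h against 6 h. Fitting only the groups compared gave 0, 7, 11 and 8. Replicates 1 and 2 alone gave 0 at 6 h, 13 at 18 h and 2 for 18 h against 12 h, and replicates 3 and 4 alone gave 0, 6, 13 and 1. Weighting the arrays by quality gave 2 at 6 h, 34 at 12 h and 25 for 12 h against 6 h. An adjusted p under 0.01 left 0, 8, 10 and 5, and a change of at least 1 left 12 at 12 h and 12 at 18 h. Without 1 array the counts ran from 0 to 1 at 6 h, 11 to 22 at 12 h, 12 to 22 at 18 h, 5 to 17 for 12 h against 6 h and 0 to 1 for 18 h against 12 h. They were over 1.5 times lower without sham replicate 4 (12 at 12 h and 12 at 18 h), without 12 h replicate 1 (11 at 12 h, 5 against 6 h) and without 6 h replicates 1, 2 and 3 (7, 6 and 5 for 12 h against 6 h). The count of 0 between 12 h and 18 h became 1 without 18 h replicate 4.

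With the replicate number as a block, 1 member was called at 6 h, 27 at 12 h, 31 at 18 h, 22 for 12 h against 6 h and 0 for 18 h against 12 h, and it ended none of the 52 calls of named genes. The numbers were not taken to pair the arrays: deviations from the group means correlated at 0.007 to 0.556 (median 0.414) for the same number and at a median of 0.385 for the other number of the same pair, and 11 of 16 arrays correlated best with their own number. With the pair of replicates as a block, 31 were called at 18 h and 21 for 12 h against 6 h. With the array set as a block, which sets 12 h and 18 h against sham only through replicates 1 and 2, 17 were called at 12 h and 17 at 18 h, and 10 of the 52 calls ended.

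Over the 52 calls of named genes, 815 of 1073 values under alternatives kept the call, 258 lost it with the same direction and 0 reversed. Of the 52, 25 held without each single array, and 7 held in every alternative run: Slc13a2 and Slc45a3 at 12 h and 18 h, and Slc16a1, Slc41a3 and Slc52a3 at 18 h. Slc16a1 had 19 alternatives and the others 21, since it had no value with a minimum of 7 or with averaged probe sets. In the main fit it was tested only because ligated arrays reached the minimum level. The causes were not tested. The 4 arrays a group limit the precision, and levels under 5 give bounds.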

Other observations

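Markers of the tissue and of other cells gave few calls against sham. Of 6 epithelial markers, the tight junction gene Cldn3 rose by 0.77 ± 0.16 (SE, adjusted p = 0.00732) at 12 h and 0.52 ± 0.16 (SE, adjusted p = 0.0463) at 18 h. Of 5 matched initial segment markers, Ggt1, an enzyme of glutathione breakdown, fell by 0.60 ± 0.17 (SE, adjusted p = 0.0434) at 12 h and 0.77 ± 0.17 (SE, adjusted p = 0.00941) at 18 h. At 18 h the macrophage marker Cd14 rose by 1.92 ± 0.46 (SE, adjusted p = 0.0158), at least 3.43-fold, and the endothelial marker Kdr by 0.96 ± 0.21 (SE, adjusted p = 0.00876). The sperm gene Smcp was called at 6 h as well as later, with a change of -3.99 ± 0.78 (SE, adjusted p = 0.0487) at 6 h. In the lists of basal, narrow or clear, smooth muscle, fibroblast, fat and red blood cells, 0 tested markers were called by limma at any of the 3 times, and 4 of their 54 tests had an unadjusted p under 0.05.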
